A study of Homo sapiens with 28 samples.

Results

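The insulin-like growth factor (IGF) axis was followed in the established human liver cancer line HepG2 through 10 genes taken by name from the deposited count table of 63139 genes. They are the ligand gene IGF2, the receptor genes IGF2R, IGF1R and INSR, the adaptor genes IRS1 and IRS2, the receptor inhibitor gene GRB10, and the binding protein genes IGFBP1, IGFBP2 and IGFBP4. All 10 were expressed highly enough to be tested, as were 18849 genes in all. The 28 libraries of poly(A) RNA formed 7 groups of 4. Cadmium chloride (CdCl2, 0.5 µM) had water as its control, while TCDD (100 nM), PFOS (10 µM), bisphenol A (BPA, 75 µM) and tributyltin chloride (TBTCl, 0.1 µM) had DMSO. Every group, controls included, spent 24 h without serum before the 24 h exposure. According to the series text, the names TCDD and PFOS were swapped between libraries some time after deposit, and the present labels were used. The labels speak of 4 independent experiments, each with technical triplicates, but leave unstated whether libraries of equal number in different groups belong to one experiment.

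IGF2 is a fetal and tumour growth factor that liver cancer lines often make. It signals through the tyrosine kinase receptors encoded by IGF1R and INSR, whereas IGF2R carries bound IGF2 to lysosomes. IRS1 and IRS2 link the active receptors to PI3K and AKT, GRB10 binds the receptors and dampens them, and the IGFBP proteins hold IGFs outside the cell. AKT keeps FOXO factors out of the nucleus, and IGFBP1 and IRS2 are textbook FOXO target genes that rise in liver when insulin is low. IGF2, IGF2R and GRB10 are imprinted in some species or tissues, meaning that the maternal and paternal copies are used unequally.

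Values are read counts per M counted reads (CPM) with TMM scaling, given as mean ± SD of 4 libraries. Log2 fold changes are given ± SE, and adjusted p-values are Benjamini-Hochberg values over all tested genes from the quasi-likelihood test of edgeR. A gene counts as called when its adjusted p is under 0.05. Total counts ran from 28.9 M to 66.0 M per library. The p-values measure the spread between these libraries, and fewer expressing cells and less RNA per cell cannot be told apart in them. All 10 hepatocyte markers examined were detected, with ALB the most abundant, and summed to 30250 to 48360 CPM in BPA and 42270 to 79600 CPM in DMSO, with 38560 to 58030 CPM in TCDD. Markers of other cell types summed to 11.7 to 32.4 CPM, mostly PDGFRB. That sum was 12.9 CPM in TCDD, 16.9 CPM in BPA and 24.8 CPM in DMSO on average, and its part in the results below was not tested.

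TBTCl replicate 4 stood apart from the other libraries. For each library the median log2 deviation of genes with exons of 8 kb or more was compared with that of genes under 2 kb. The difference was -0.95 in TBTCl replicate 4 and between -0.34 and 0.31 in the others. The BPA libraries lay between 0.24 and 0.31 and the DMSO libraries between -0.08 and -0.00. Because IGF2R, IGF1R, INSR, IRS1, IRS2 and GRB10 have long transcripts, results on them were also checked with an offset for exon length and without that library. Both fits are among the alternatives counted below, and their values are given for some of these genes.

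Promoter sequences from RefSeq (GRCh38.p14) were at hand for 8 of the 10 genes, in 14 windows of 250 bases before to 50 bases after a transcription start. IGF2 and IGFBP1 were not in that table. The sequences shown are those of GRB10, IRS2 and IGF2R, the genes that set BPA apart from every other DMSO-controlled compound in the direct tests below. GRB10 had 5 such windows, of which start 1, the most upstream, and start 3 are shown. These are the ones that held a match to a motif named below. Counts per gene do not tell its starts apart. Capitals mark matches on either strand to GCGTG (core of the dioxin response element), TGACNNNGC (core of the antioxidant response element), CACGTG (E-box) or TGTTTTG (part of the insulin response element bound by FOXO factors).
GRB10, start 1, chr7:50793404-50793703, minus strand: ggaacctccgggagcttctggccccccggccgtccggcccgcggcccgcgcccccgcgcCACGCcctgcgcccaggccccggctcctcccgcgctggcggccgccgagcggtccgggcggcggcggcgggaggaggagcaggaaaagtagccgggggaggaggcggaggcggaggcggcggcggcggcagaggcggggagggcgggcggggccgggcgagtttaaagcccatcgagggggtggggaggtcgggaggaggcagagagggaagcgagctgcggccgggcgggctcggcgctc
GRB10, start 3, chr7:50782847-50783146, minus strand: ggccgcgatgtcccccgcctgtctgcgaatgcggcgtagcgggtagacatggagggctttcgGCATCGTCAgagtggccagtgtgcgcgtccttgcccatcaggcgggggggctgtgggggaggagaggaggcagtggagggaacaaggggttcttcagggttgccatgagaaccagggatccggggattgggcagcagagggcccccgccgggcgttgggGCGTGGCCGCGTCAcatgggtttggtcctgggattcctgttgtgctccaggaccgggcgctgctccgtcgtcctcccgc
IRS2, chr13:109786534-109786833, minus strand: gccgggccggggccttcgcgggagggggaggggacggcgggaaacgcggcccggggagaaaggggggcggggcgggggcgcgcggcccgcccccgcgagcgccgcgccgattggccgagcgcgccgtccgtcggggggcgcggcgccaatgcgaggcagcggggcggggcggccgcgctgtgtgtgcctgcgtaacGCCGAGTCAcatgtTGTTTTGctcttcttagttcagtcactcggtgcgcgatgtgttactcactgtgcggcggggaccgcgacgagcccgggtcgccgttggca
IGF2R, chr6:159968832-159969131, plus strand: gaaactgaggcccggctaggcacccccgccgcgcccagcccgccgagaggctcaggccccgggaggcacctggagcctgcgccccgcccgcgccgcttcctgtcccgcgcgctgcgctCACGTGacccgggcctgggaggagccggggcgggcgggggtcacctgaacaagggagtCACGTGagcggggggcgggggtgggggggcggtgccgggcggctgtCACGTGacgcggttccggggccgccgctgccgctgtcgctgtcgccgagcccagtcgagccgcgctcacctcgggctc
Positions count from the start, with negative values upstream. The GRB10 window at start 1 held a GCGTG match at -191. The window at start 3 held a GCGTG match at -29 and TGACNNNGC matches at -188 and -24, the latter next to the GCGTG match without overlap. The IRS2 window held TGACNNNGC at -54 and TGTTTTG at -40, and the IGF2R window held CACGTG at -132, -74 and -28. Of 35116 promoter windows of this length, 36.5% held GCGTG, 13.3% TGACNNNGC, 7.3% CACGTG and 4.9% TGTTTTG. The IGFBP4 and INSR windows and the GRB10 windows at starts 2, 4 and 5 held none of the 4 motifs. IGF1R had 4 GCGTG matches. Genes not called under BPA had matches too: IRS1 had 1 each to GCGTG, TGACNNNGC and CACGTG. IGFBP2 had 1 to GCGTG in 1 of its 3 windows. These matches describe the letters of the windows and show neither binding nor a cause.

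Per kilobase of exon, which allows a rough comparison of levels between genes, IGFBP1 and IGF2 were the most abundant of the 10 in water. They were at 638 ± 463 and 600 ± 388 CPM per kb. IGFBP4 (41.5 ± 8.74) and IGF2R (33.2 ± 6.97) followed, then INSR (8.39 ± 1.27), IGF1R (6.64 ± 1.37) and IRS1 (6.53 ± 1.85). IGFBP2 (3.38 ± 1.39) and GRB10 (2.07 ± 0.125) were lower, and IRS2 was the lowest at 0.0469 ± 0.0161 CPM per kb. Libraries overlapped between IGFBP1 and IGF2, between IGFBP4 and IGF2R, among INSR, IGF1R and IRS1, and between IGFBP2 and GRB10. Within each of the 28 libraries INSR was nevertheless above IGF1R, by a ratio of 1.12 to 1.93. The genes also differed in steadiness: over all 28 libraries the highest IGFBP1 level was 98.3 times the lowest, against 1.96 times for INSR.

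**Figure D1:**
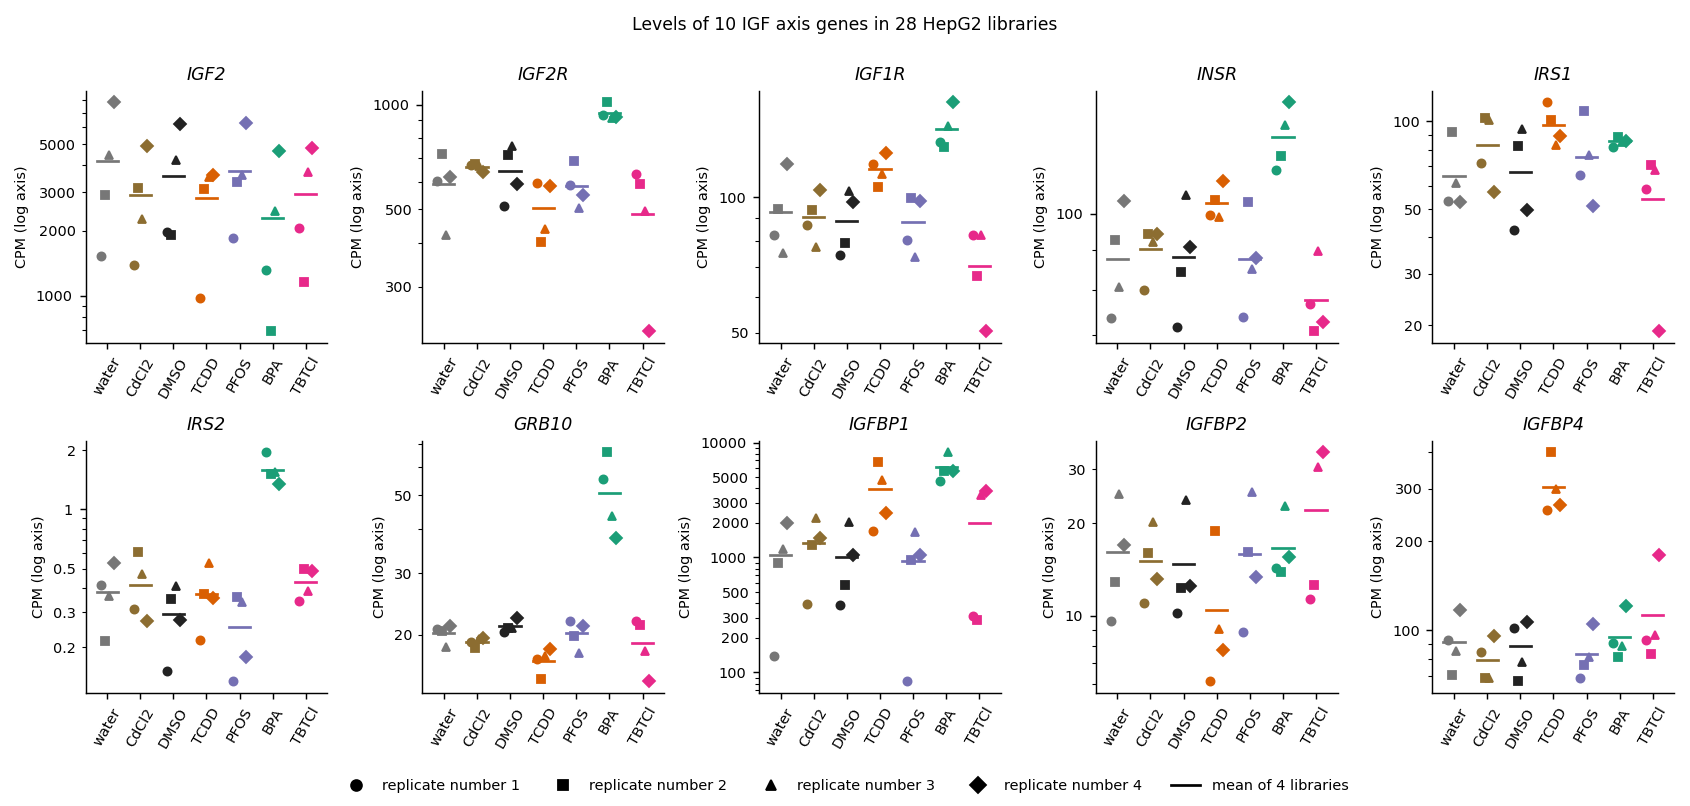
Level of each of the 10 genes in the 28 libraries, in CPM on a log axis, by group; symbols mark the replicate number and lines the mean of 4 libraries. GRB10, IRS2 and IGF2R stand highest in the BPA libraries, IGFBP4 in the TCDD libraries, and IGF2 and IGFBP1 spread widely within every group but BPA for IGFBP1.

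BPA changed more of the 10 genes than the other compounds did. Against DMSO, 6 of the 10 genes rose and none fell: IGF2R, IGF1R, INSR, IRS2, GRB10 and IGFBP1. The background was large, since 35.0% of the 18849 tested genes were called, and 17.3% of the tested genes were called as higher. The median log2 change of the 10 was 0.53, beside -0.02 over all tested genes. Background differed with exon length, and IGF2R, IGF1R, INSR, IRS2 and GRB10 have exons of 8 kb or more. Called as higher were 22.0% of genes with 8 to 12 kb, 21.2% of those with 12 kb or more and 8.04% of those under 2 kb. Their median log2 changes were 0.10, 0.10 and -0.28. IGFBP1 belongs to the genes under 2 kb. In 6 of the 10 genes every BPA library lay on one side of every DMSO library, which also held for 37.2% of all tested genes. The share of higher calls depended on scaling: 3268 genes were higher and 3320 lower with TMM, 2239 and 4345 with upper-quartile factors, and 2169 and 4321 by library size alone. The last 2 scalings moved the median of all genes by -0.13 and -0.12 on the log2 scale, and 5 of the 10 genes were then called, all higher.

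Among the receptors, IGF2R lies on chromosome 6 (159969099-160113507, plus strand, GRCh38). Its level was 511, 717, 762 and 591 CPM in the DMSO libraries and 933, 1016, 913 and 921 CPM in the BPA libraries. Every BPA library was above every DMSO library. The rise was 0.55 ± 0.21 on the log2 scale (edgeR adjusted p = 0.0455), and 10 of 19 alternative analyses lost the call. These included leaving out DMSO replicate 1, 2 or 4 or any single BPA library (adjusted p 0.0589 to 0.136). With the upper-quartile factors the change was 0.43, which is 0.58 above the median of all genes, compared with 0.57 above it in the TMM analysis. With the exon length offset it was 0.50 ± 0.14 (edgeR adjusted p = 0.00754), and without TBTCl replicate 4 it was 0.55 ± 0.15 (edgeR adjusted p = 0.00551).

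IGF2R followed the balance of long and short transcripts across libraries more closely than any other of the 10. Pearson's r between its log2 level and that balance was 0.92 over 28 libraries, 0.86 without TBTCl replicate 4, and 0.90 for deviations within groups. The corresponding values over 28 libraries were 0.66 for IGF1R, 0.64 for GRB10, 0.54 for IRS1 and 0.45 for INSR. For IRS1, r was 0.02 without TBTCl replicate 4, so its relation rested on that library. For GRB10, r was 0.75 without TBTCl replicate 4 and 0.62 for deviations within groups. Both quantities come from the same libraries and the same scaling, and the values are descriptions.

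**Figure D2:**
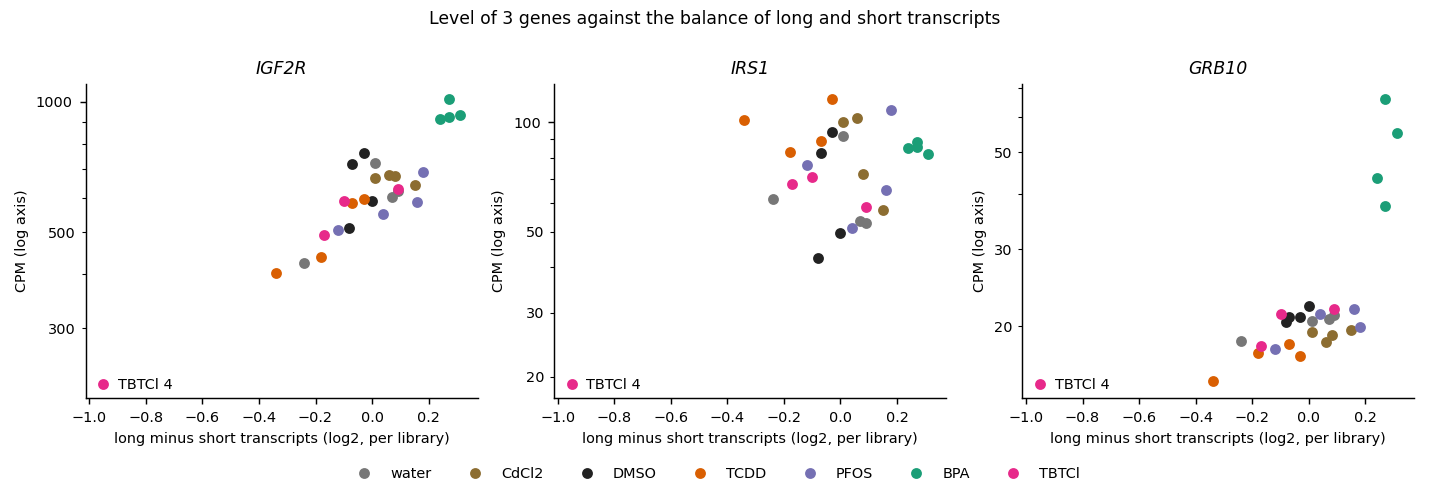
Level of IGF2R, IRS1 and GRB10 in CPM (log axis) against the median log2 deviation of long minus short transcripts, with 1 point per library. IGF2R runs along a line (r = 0.92 over 28 libraries). The GRB10 levels of BPA stand above those of all other libraries, but no other library reaches the BPA balance of 0.24 or more (highest 0.18, PFOS replicate 2).

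IGF1R, the receptor of IGF1 and IGF2 (chromosome 15, 98648539-98964530, plus strand), was at 74.6, 79.0, 103 and 97.6 CPM in DMSO and 133, 130, 144 and 163 CPM in BPA. The groups did not overlap, and the rise was 0.68 ± 0.16 on the log2 scale (edgeR adjusted p = 0.00145). INSR, the insulin receptor gene (chromosome 19, 7112255-7294034, minus strand), was at 71.8, 84.2, 106 and 90.7 CPM in DMSO and 114, 119, 130 and 139 CPM in BPA. Its groups also lay apart, with a rise of 0.51 ± 0.12 (edgeR adjusted p = 0.00236). In comparisons of libraries with equal numbers the rise ran from 0.48 to 0.83 for IGF1R and from 0.30 to 0.67 for INSR. With the exon length offset the rises were 0.62 for IGF1R and 0.46 for INSR. Both receptor genes kept their calls in all 19 alternatives. They also moved together, with r = 0.904 across 28 libraries and 0.723 within groups. The ratio of INSR to IGF1R per kilobase was 1.33 ± 0.0816 in DMSO and 1.18 ± 0.0421 in BPA.

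Of the adaptors, IRS2 changed by the larger fold, although from a very low level. IRS2 (chromosome 13, 109752698-109786568, minus strand) was at 0.152, 0.350, 0.408 and 0.275 CPM in DMSO, which is 5 to 22 counts. It was at 1.95, 1.52, 1.56 and 1.34 CPM in BPA, or 47 to 88 counts. All BPA libraries lay above all libraries of the other 6 groups. The rise was 2.38 ± 0.32, or 5.20-fold (edgeR adjusted p = 4.214e-06), and was called in all 19 alternatives. IRS1 (chromosome 2, 226731317-226799759, minus strand) had 42.5, 82.5, 94.2 and 49.6 CPM in DMSO and 81.7, 88.5, 85.2 and 85.8 CPM in BPA. The BPA libraries lay within the range of DMSO, and the difference of 0.34 ± 0.30 was not called (edgeR adjusted p = 0.397). Per kilobase, IRS2 was at 0.0229 ± 0.00439 of the IRS1 level in BPA and 0.00542 ± 0.00100 of it in DMSO, so IRS1 remained by far the more abundant adaptor transcript.

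GRB10, the receptor inhibitor gene (chromosome 7, 50590063-50793462, minus strand), was steady in control cells. Its level was 20.4, 20.9, 21.0 and 22.3 CPM in DMSO and 20.7, 20.6, 18.5 and 21.3 CPM in water. In BPA it was 55.4, 66.2, 43.6 and 37.7 CPM, so that the lowest BPA library was well above the highest control. The rise was 1.26 ± 0.14, or 2.40-fold (edgeR adjusted p = 1.643e-07). It was called in all 19 alternatives, between 1.11 and 1.38 on the log2 scale. The exon length offset kept the call (edgeR adjusted p = 1.794e-08). The highest BPA library was 1.76 times the lowest, the widest GRB10 range of the 7 groups.

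IGFBP1, a secreted binding protein made by liver (chromosome 7, 45888357-45893668, plus strand), was at 387, 572, 2050 and 1059 CPM in DMSO and 4668, 5698, 8238 and 5681 CPM in BPA. The groups did not overlap although DMSO spanned several fold. The rise was 2.58 ± 0.84, or 5.97-fold (edgeR adjusted p = 0.0194). Leaving out DMSO replicate 1 or 2 ended the call, with edgeR adjusted p = 0.0591 and 0.0597 and changes of 2.31 and 2.38. Counted per kilobase over IGFBP1 to IGFBP7, IGFBP1 made up 89.4 ± 6.81% of binding protein transcripts in DMSO and 98.4 ± 0.471% in BPA. IGFBP2 differed by 0.17 ± 0.39 (edgeR adjusted p = 0.763) and IGFBP4 by 0.11 ± 0.22 (edgeR adjusted p = 0.733), with overlapping libraries.

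IGF2 itself was not called under BPA. It lies on chromosome 11 (2129112-2149603, minus strand), and 73.7% of its exon bases in GENCODE 29 are shared with overlapping gene models on the same strand. The best known of these, INS-IGF2, had 0 counts in every library. The sources used here do not say how shared bases were counted. IGF2 was at 1973, 1916, 4241 and 6216 CPM in DMSO and 1318, 688, 2469 and 4654 CPM in BPA. The groups overlapped, yet the BPA library was the lower in each of the 4 comparisons of equal numbers, by 0.42 to 1.48 on the log2 scale. The difference was -0.65 ± 0.57 (edgeR adjusted p = 0.398), and it was not called with the replicate number as a block either. It reached the threshold with the exon length offset and that block together (-0.76 ± 0.30, edgeR adjusted p = 0.0442). That fit was added after seeing the data.

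**Figure D3:**
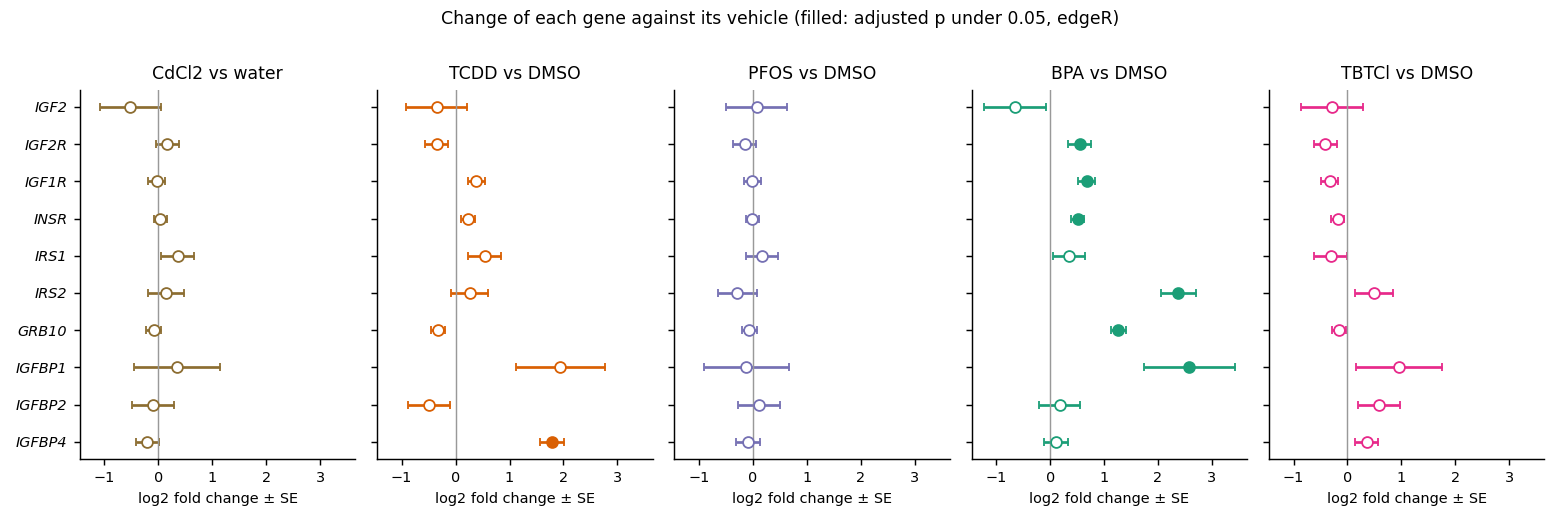
Log2 fold change ± SE of each gene in each compound against its vehicle; filled points have an edgeR adjusted p under 0.05. The 6 filled points under BPA lie to the right of zero, IGFBP4 is the 1 filled point under TCDD, and no point is filled under CdCl2, PFOS or TBTCl.

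TCDD, a ligand of the aryl hydrocarbon receptor, raised IGFBP4 alone among the 10, while 9.25% of all tested genes were called, 6.45% as higher. IGFBP4 encodes a binding protein that restrains IGF until the protease PAPPA cuts it (chromosome 17, 40443461-40457731, plus strand). Its level was 101, 67.1, 77.8 and 106 CPM in DMSO and 254, 399, 300.0 and 264 CPM in TCDD. Each TCDD library was above every one of the other 24 libraries. The rise was 1.79 ± 0.22, or 3.45-fold (edgeR adjusted p = 1.614e-06), and was called in all 19 alternatives. It ran from 1.31 to 2.57 in comparisons of equal numbers.

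IGFBP1 was at 1697, 6746, 4729 and 2454 CPM in TCDD, above the DMSO library of the same number in 4 of 4 cases but overlapping DMSO replicate 3. The difference of 1.94 ± 0.82 was not called by edgeR (adjusted p = 0.160) and was called by DESeq2 (adjusted p = 0.0481). IGF1R was at 118, 106, 113 and 125 CPM in TCDD, above all DMSO libraries, with a difference of 0.38 ± 0.16 (edgeR adjusted p = 0.140). With the exon length offset that difference was called (0.39 ± 0.12, edgeR adjusted p = 0.0457). GRB10 was at 17.1, 14.9, 17.4 and 18.2 CPM, below all DMSO libraries, with a difference of -0.32 ± 0.14 (edgeR adjusted p = 0.156). Libraries of TCDD and DMSO did not overlap for these 2 genes and IGFBP4, 3 of 10, while 15.3% of all tested genes were free of overlap. IGF2 (-0.35 ± 0.57), IGF2R (-0.35 ± 0.21), INSR (0.23 ± 0.12), IRS1 (0.54 ± 0.30), IRS2 (0.26 ± 0.35) and IGFBP2 (-0.49 ± 0.39) were not called, with overlapping libraries. The ratio of IGFBP1 to IGFBP2 per kilobase was 184 ± 72.7 in DMSO, 1061 ± 311 in TCDD and 1054 ± 99.0 in BPA. Ratios of both exposures lay above all DMSO ratios, which ended at 249, and these ratios were not tested.

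CdCl2, PFOS and TBTCl called none of the 10 genes, and neither did DMSO against water. Over all tested genes the calls were 0.0212% for CdCl2, 0.0159% for PFOS, 0.143% for TBTCl and 0% for DMSO against water. In edgeR no unadjusted p of the 10 was under 0.05 for CdCl2, PFOS or DMSO against water, and for TBTCl 1 was, that of IGF1R (-0.33 ± 0.16, edgeR adjusted p = 0.304). DESeq2 also called 0 in each. The log2 changes of the 10 ran from -0.52 to 0.36 in CdCl2, from -0.29 to 0.16 in PFOS, and from -0.31 to 0.12 in DMSO against water. The precision differed by gene. For GRB10 under PFOS the 95% interval ran from -0.35 to 0.22, and for IGFBP1 it ran from -1.77 to 1.53.

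For TBTCl the log2 changes ran from -0.41 to 0.96, and replicate 4 held the lowest level of IGF2R (224 CPM), IGF1R (50.4 CPM), IRS1 (19.1 CPM) and GRB10 (14.8 CPM) among all 28 libraries. It also held the highest IGFBP2 level (34.1 CPM). Without it, the IGF2R change went from -0.41 ± 0.21 to -0.17 ± 0.16, that of IRS1 from -0.31 ± 0.30 to -0.03 ± 0.26, and that of IGFBP4 from 0.36 ± 0.22 to 0.04 ± 0.19. IGFBP1 split within TBTCl, with 309 and 285 CPM in replicates 1 and 2 and 3511 and 3817 CPM in replicates 3 and 4.

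The 4 compounds with DMSO as vehicle were also compared directly, which gives 6 pairs. These comparisons share libraries with those above. Each compound was given at 1 dose and the doses differ, so compound and dose cannot be told apart. GRB10 was higher in BPA than in TCDD by 1.59 ± 0.14, than in TBTCl by 1.42 ± 0.14 and than in PFOS by 1.33 ± 0.14 (edgeR adjusted p = 2.474e-09, 4.256e-08 and 8.323e-08). IRS2 was higher in BPA than in those 3 by 2.12 ± 0.32, 1.89 ± 0.33 and 2.67 ± 0.34, and IGF2R by 0.90 ± 0.21, 0.97 ± 0.21 and 0.70 ± 0.21, all called. By library size alone, IGF2R missed the threshold against PFOS (0.59, edgeR adjusted p = 0.0558). In all, BPA differed from TCDD in 4 of the 10 genes (38.3% of all tested genes were called), from TBTCl in 5 (34.8%) and from PFOS in 6 (30.6%). With the replicate number as a block, 7 genes were called against TBTCl, IRS1 (0.76 ± 0.23, edgeR adjusted p = 0.00996) and IGFBP1 (2.30 ± 0.58, edgeR adjusted p = 0.00271) being added. Against PFOS the block also gave 7, with IGF2 lower in BPA (-0.84 ± 0.31, edgeR adjusted p = 0.0329). IGFBP4 was the exception in direction, being lower in BPA than in TCDD by 1.68 ± 0.22 on the log2 scale (edgeR adjusted p = 1.567e-06).

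IGF2R apart, the receptor genes were not called between BPA and TCDD. IGF1R differed by 0.30 ± 0.16 (95% interval -0.02 to 0.62) and INSR by 0.28 ± 0.12 (0.02 to 0.54), with edgeR adjusted p = 0.127 and 0.0732, although the libraries did not overlap for either. Both were called with only the 8 libraries compared (edgeR adjusted p = 0.0308 for IGF1R and 0.0291 for INSR), and INSR also without TBTCl replicate 4 (0.29 ± 0.12, edgeR adjusted p = 0.0496). IGFBP1 differed by 0.64 ± 0.80, with an interval from -1.02 to 2.29 that allows a sizeable difference either way. TCDD exceeded TBTCl in IGF1R (0.71 ± 0.16), INSR (0.41 ± 0.12) and IGFBP4 (1.43 ± 0.22), 3 of the 10, with 12.8% of all tested genes called. The INSR call was lost without TBTCl replicate 4 (0.37 ± 0.13, edgeR adjusted p = 0.0669), without TBTCl replicate 2 or TCDD replicate 2 or 4 (adjusted p 0.054 to 0.0804), and with the exon length offset (0.25 ± 0.13, adjusted p = 0.193). TCDD differed from PFOS in IGFBP4 alone, by 1.88 ± 0.22 (13.0% of all tested genes were called). TBTCl and PFOS differed in 0 of the 10 by edgeR, which called 0.249% of all tested genes, and by DESeq2, with unadjusted edgeR p-values under 0.05 for 2, IRS2 and IGFBP4.

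The replicate number was a source of variation of its own. With the number added beside the 7 groups, 5 of the 10 genes differed between numbers, namely IGF2, IRS1, IGFBP1, IGFBP2 and IGFBP4, and so did 34.3% of all tested genes. IGF2 deviated from its group means by -0.85, -0.35, 0.27 and 0.92 on the log2 scale for numbers 1 to 4, a span of 3.41-fold (edgeR adjusted p = 0.0001123). Number 4 was above the group mean in 7 of 7 groups and number 1 in 0 of 7. In TCDD, for example, IGF2 was at 977, 3118, 3552 and 3608 CPM, and in water at 1532, 2917, 4482 and 7827 CPM. The span between numbers was thus wider than any of the group differences of IGF2 given here.

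For IGFBP1 the deviations were -1.53, 0.01, 0.91 and 0.61, a span of 5.41-fold (edgeR adjusted p = 0.00158). Number 1 lay below the mean in 7 of 7 groups and number 3 above it in 7 of 7. PFOS showed the widest range, from 83.8 CPM in replicate 1 to 1678 CPM in replicate 3. IGFBP2 was likewise lowest in number 1 and highest in number 3, with deviations of -0.58, 0.03, 0.53 and 0.02 (2.16-fold, edgeR adjusted p = 0.00273). Within groups the log2 levels of IGFBP1 and IGFBP2 had r = 0.863 over 28 libraries, and those of IGFBP1 and IGF2 had r = 0.697. IRS1 was highest in number 2 and lowest in number 4 (1.69-fold, edgeR adjusted p = 0.00835), and lost its call without the PFOS libraries (adjusted p = 0.0614). IGFBP4 was highest in number 4 (1.40-fold, edgeR adjusted p = 0.012), and lost its call without the water or the TBTCl libraries (adjusted p = 0.0536 and 0.0574).

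GRB10 and IRS2, the genes with the smallest p-values under BPA, were not among those 5. GRB10 spanned 1.11-fold between numbers (edgeR adjusted p = 0.481) and IRS2 1.35-fold (edgeR adjusted p = 0.376). IGF2R (1.18-fold, adjusted p = 0.478), IGF1R (1.13-fold, adjusted p = 0.492) and INSR (1.18-fold, adjusted p = 0.0625) were not called either. Without TBTCl replicate 4, IGF1R and INSR passed the threshold (adjusted p = 0.0301 and 0.0256), making 7 of 10. What the numbers stand for was not tested.

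**Figure D4:**
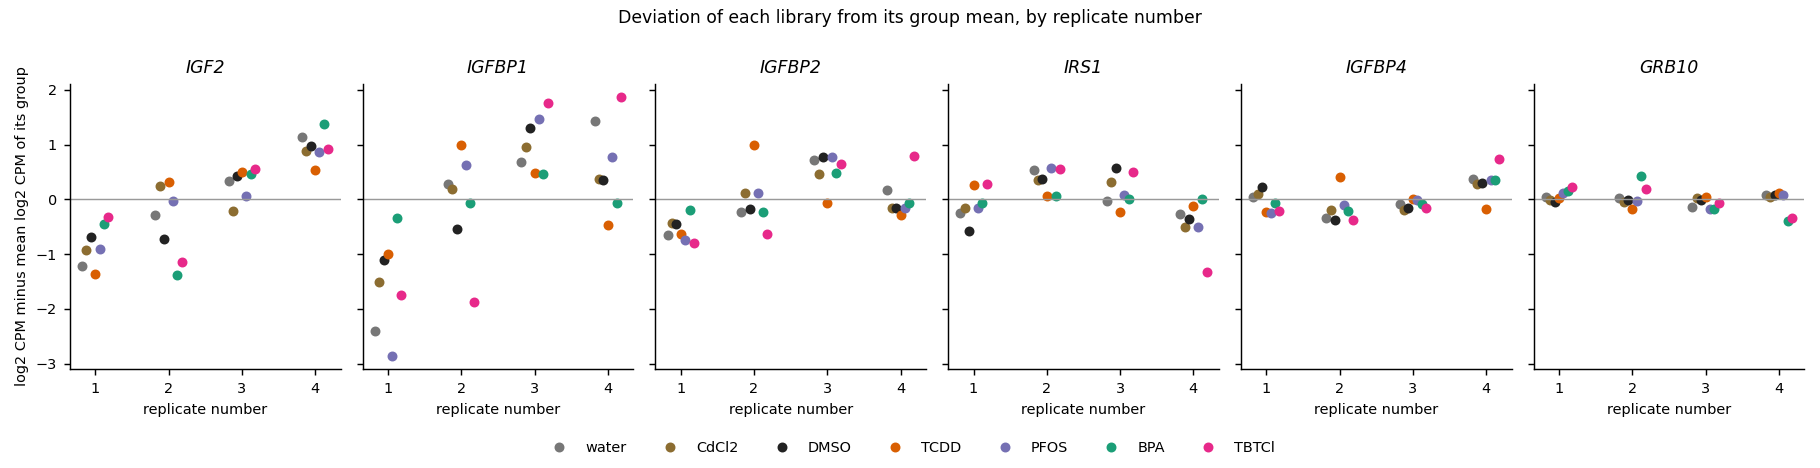
Log2 CPM of each library minus the mean of its group, by replicate number, for the 5 genes that differed between numbers and for GRB10; colours mark the groups. IGF2 number 4 and IGFBP1 number 3 lie above zero in all 7 groups and number 1 of both lies below it, while GRB10 stays near zero apart from some BPA and TBTCl libraries.

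The rest of the pathway was examined with 5 gene lists, whose counts of calls are to be read against the 35.0% of all tested genes called in BPA and the 9.25% called in TCDD. Of other ligands, binding proteins and proteases, 8 of 13 were tested. IGF1, INS and PAPPA stayed at or under 16 counts in every library and were not. BPA raised FURIN, a protease that processes the IGF1R and INSR precursors, from 43.4 ± 6.75 to 118 ± 11.8 CPM (1.44 ± 0.15, edgeR adjusted p = 4.804e-08). It lowered IGFALS, the scaffold of circulating IGF complexes, from 1.56 ± 0.0834 to 0.503 ± 0.110 CPM (-1.63 ± 0.23, edgeR adjusted p = 6.201e-06). With STC2 higher and IGFBP5 lower, 2 rose and 2 fell, 4 of 8 beside 35.0% of all tested genes. The other called gene was IGFBP5 in TCDD, where it had 0, 0.0162, 0 and 0 CPM against 0.152, 0.0954, 0.223 and 0.261 CPM in DMSO (edgeR adjusted p = 0.0001433). IGFBP5 was thus close to the detection limit throughout.

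Among other receptors, adaptors and receptor inhibitors, 15 of 17 were tested, and BPA raised 5 and lowered 1. These 6 of 15 are near the 35.0% of all tested genes called. The adaptor SHC1 rose by 0.64 ± 0.11, SH2B2 by 1.64 ± 0.35 and CISH by 0.73 ± 0.19, and GRB7, a relative of GRB10, fell by 0.46 on the log2 scale. TCDD raised SOCS2, an inhibitor of growth hormone signalling, from 1.56 ± 0.460 to 17.4 ± 2.39 CPM (3.49 ± 0.31, edgeR adjusted p = 5.237e-09). SOCS1 fell in TCDD by 1.20 and GRB7 by 0.88 on the log2 scale, and SOCS3 was also called, 2 genes rising and 2 falling of 15, beside 9.25% of all tested genes. The GRB7 call in BPA was lost without DMSO replicate 3 or BPA replicate 2 (adjusted p up to 0.0894), and that of SOCS3 in TCDD without DMSO replicate 1, 2 or 3 or TCDD replicate 2 or 3 (adjusted p 0.0543 to 0.116). GRB14, the other close relative of GRB10, was called in neither (edgeR adjusted p = 0.501 in BPA and 0.758 in TCDD).

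The PI3K, AKT, mTOR and FOXO list was tested in full, and 9 of 25 rose and 3 fell in BPA, beside 35.0% of all tested genes called and 17.3% called as higher. Of the 9, FOXO3 lost its call in 11 of 19 alternatives and TSC1 in 7 of 19 (adjusted p up to 0.109 and 0.206). RICTOR, a subunit of the mTORC2 complex, rose by 1.06 ± 0.14, the AKT-binding pseudokinase gene TRIB3 by 1.68 ± 0.22 and EIF4EBP1, a translation repressor gene, by 1.31 ± 0.22. The list's median change was 0.19, beside -0.02 over all genes. AKT1 and AKT2 were not called (0.04 ± 0.12 and 0.19 ± 0.13). In TCDD 0 rose and 2 of 25 fell, a share near the 9.25% of all tested genes called. The PI3K subunit gene PIK3CB fell by 0.51 and PIK3R1, another, by 0.59 on the log2 scale. The PIK3CB call was lost without DMSO replicate 3 or 4 or TCDD replicate 2 (adjusted p 0.0505 to 0.0758), and the PIK3R1 call without DMSO replicate 2 or TCDD replicate 2 or 3 (adjusted p 0.0745 to 0.0899).

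FOXO targets and insulin-responsive genes did not share a direction under BPA, where 3 of 12 tested rose and 4 fell, beside 35.0% of all tested genes called and 17.3% called as higher. PPARGC1A, a coactivator of fasting genes, rose from 16.4 to 56.0 CPM on average (1.77 ± 0.16, edgeR adjusted p = 1.028e-08), and SESN2 rose by 0.95 ± 0.15. SESN1 fell by 1.06 on the log2 scale. The gluconeogenic genes PCK1 (0.89 ± 0.46) and G6PC1 (0.88 ± 0.98) were not called. In TCDD SESN1 and TRIB1 fell, by 0.63 and 0.70 on the log2 scale, and 0 rose, 2 of 12 beside 9.25% of all tested genes. TRIB1 lost its call without DMSO replicate 1 or 4 or TCDD replicate 1 or 2 (adjusted p 0.0514 to 0.0741).

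Of the regulators of IGF2 RNA and imprinted neighbours, 11 of 16 were tested. H19, the noncoding neighbour of IGF2, reached at most 16 counts in a library and CDKN1C at most 3, so neither could be tested beside IGF2. KCNQ1OT1, an imprinted noncoding RNA of the same chromosome arm, was higher in TCDD (1.00 ± 0.20, edgeR adjusted p = 0.000872) and lower in BPA (-0.94 ± 0.20, edgeR adjusted p = 0.0007219). Its levels were 30.6 ± 4.87 CPM in DMSO, 61.3 ± 4.94 CPM in TCDD and 15.9 ± 4.64 CPM in BPA. It lies antisense to KCNQ1, and the sources used here do not say whether counting used strand. BPA also lowered HMGA2 (-1.04 ± 0.24) and raised IGF2BP2, an IGF2 mRNA-binding protein gene, by 0.32 ± 0.12. The IGF2BP2 call was lost without any single DMSO library but replicate 3 or any single BPA library but replicate 1, and with upper-quartile factors or library size alone (adjusted p 0.0507 to 0.221). CdCl2, PFOS, TBTCl and DMSO against water called 0 genes of these 5 lists by edgeR.

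**Figure D5:**
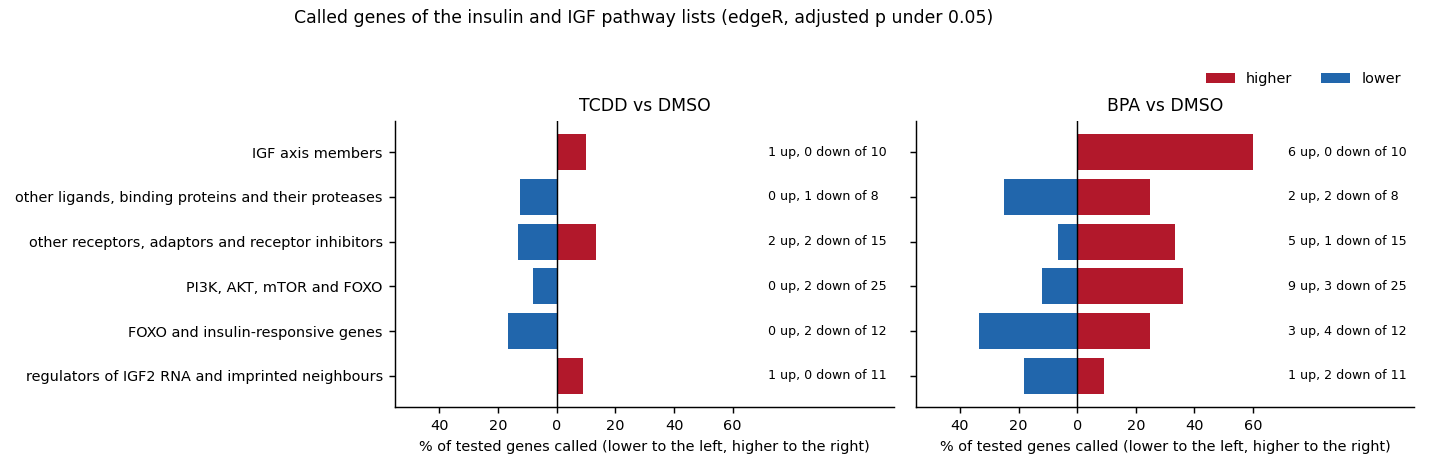
Percent of tested genes of each list called lower (bars to the left) or higher (bars to the right) in TCDD and BPA against DMSO, with the counts beside the bars. Of the 10 IGF axis genes, 6 are higher under BPA and 1 under TCDD, while the list of FOXO and insulin-responsive genes splits into 3 higher and 4 lower.

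The tested genes whose log2 levels followed each called member most closely across the 28 libraries were also listed, as a description. GRB10 ran with SPIRE1 (r = 0.969) and ZNF746 (0.968), and IGF2R with MTOR (0.978) and TJP1 (0.976). IGF1R ran with PACS1 (0.930), INSR with CMIP (0.916) and CCDC92 (0.915), and IRS2 with INPP1 (0.893) besides a gene without a symbol. IGFBP1 ran with PTPRH (0.948) and DNAJC12 (0.932), and IGFBP4 with CCDC154 (0.956) and A4GALT (0.946). Such correlations pool differences between groups and between libraries, and all points share the scaling. IGF2R also had r = 0.92 with the balance of long and short transcripts, and GRB10 0.64. The part of that balance in these likenesses was not tested.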

How the data were processed

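Poly(A) RNA of 28 HepG2 libraries was sequenced from directional libraries, per the labels. The authors deposited integer read counts per gene, and the submitters' processing notes list STAR, HTSeq, fastp, DESeq2 and the build GRCh38 without versions. The sources used here state neither annotation release nor strand setting. The last row, possibly cut short at the file's end, was dropped, leaving 63139 of 63140 genes. Symbols were at hand for 62541. Exon lengths, coordinates and overlaps came from GENCODE 29, which holds 58126 of the identifiers and may differ from the annotation used for counting.

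filterByExpr (minimum count 10) kept 18849 genes, which hold 99.96% of all counts. They were tested with edgeR 4.0.16 (quasi-likelihood, TMM) in R 4.3.3. A single fit of 28 libraries had 7 group means and 21 residual degrees of freedom. SE is the log2 fold change divided by the square root of F. The fit was also run on simulated data with a single spread of 22% for all genes. That run does not show how the fit performs for genes as variable as IGF2 and IGFBP1. Replicate libraries differed by more than counting error (chi-square per gene at least 23.1). Alternatives were DESeq2 1.42.0, other scalings, no filter, a replicate block, single libraries left out and, added after seeing the data, an exon length offset and a fit without TBTCl replicate 4. Libraries of equal number deviated together only weakly for BPA and DMSO (r 0.173 to 0.269). With DMSO, r was 0.425 to 0.593 for PFOS, 0.249 to 0.528 for TBTCl and -0.212 to 0.439 for TCDD. With water, r was 0.123 to 0.540 for CdCl2 and 0.181 to 0.627 for DMSO. The labels do not say what the numbers mark. The 10 genes and the lists were chosen with earlier results of these data known. Named beyond the 10 were up to 3 called genes with the smallest p per list and comparison, up to 2 genes most correlated with each called member (1 is not reported here), H19 and CDKN1C; others from the lists are examples picked after their values were seen. Counting error alone sets a floor of 3 counts, or 0.0454 to 0.104 CPM.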

Additional observations from a re-analysis of the deposited data

Results flagged for a closer look

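In 70 sets of 4 libraries (10 genes in 7 groups), 3 held a library whose gap to its nearest neighbour exceeded Dixon's 95% limit for 4 values, and chance alone flags about 1 in 20 such sets. INSR was at 79.9 CPM in CdCl2 replicate 1, while the other 3 CdCl2 libraries lay between 92.2 and 94.2 CPM. IGFBP2 was at 23.8 CPM in DMSO replicate 3, above 10.2 to 12.5 CPM in the others, and replicate number 3 was above the group mean of IGFBP2 in 6 of 7 groups. IGFBP4 was at 180 CPM in TBTCl replicate 4, above 83.0 to 96.2 CPM in the other TBTCl libraries, in the library that also had the largest deficit of long transcripts (-0.95 on the log2 scale).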

How the results depend on the processing

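No gene of the 10 reversed a called direction under any alternative, and the 6 calls of BPA against DMSO held in all 19 alternatives for GRB10, IRS2, IGF1R and INSR but not for IGF2R and IGFBP1, as given above. The counts of calls were less stable where few genes were called, and the causes were not tested. For CdCl2 against water, 4 genes were called as reported, 15 with DESeq2, 25 without the filter on low counts, 28 with the replicate block, 28 with the block and the exon length offset, and 0 with only the 8 libraries compared. For PFOS against DMSO, 3 were called as reported, 127 with DESeq2, 23 with upper-quartile factors, 78 without the filter, 84 with the block, 47 with block and offset, and 0 against water. For TBTCl against DMSO, 27 were called as reported, 250 with DESeq2, 9 by library size alone, 111 without the filter, 179 with the block, 330 with block and offset, 44 with the offset, 13 against water and 1 with only the 8 libraries. For TBTCl against PFOS, 47 were called as reported, 211 with DESeq2, 24 by library size alone, 87 without the filter, 119 with the block, 116 with block and offset, and 0 with only the 8 libraries. DMSO against water called 0 genes by edgeR, with 431 unadjusted p-values under 0.05, and 1 each with DESeq2, the offset, and block and offset. None of these fits called one of the 10 genes in those 5 comparisons.

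For TCDD the deviations of libraries of equal number had r from -0.212 to 0.439 with those of DMSO, so their likeness depended on the number. TCDD against DMSO called 1743 genes as reported, 2722 with the replicate block and 3177 with block and offset. Of the 10 genes, 1 was called as reported, 2 with DESeq2, without the filter, with the block or with the offset, and 5 with block and offset. IGFBP1 was the second gene with DESeq2, without the filter (adjusted p = 0.0181) and with the block (2.18, adjusted p = 0.00901), and IGF1R with the offset. Against TBTCl, TCDD called 3 of the 10 as reported, 5 with DESeq2 or the block and 6 with block and offset, with 2420 genes as reported, 919 with only the 8 libraries and 4419 with block and offset. Against PFOS it called 1 of the 10 as reported, 2 with DESeq2, without the filter, with the block or with the offset, and 3 with block and offset, with 2450 genes as reported, 3745 with the block and 4280 with block and offset. BPA against TBTCl called 6564 genes as reported and 3460 with only the 8 libraries. For BPA against DMSO, where libraries of equal number deviated together only weakly (r 0.173 to 0.269), the block changed no call of the 10. Against TCDD it called 5 of the 10 in BPA, INSR being added (0.28, edgeR adjusted p = 0.0333). In the direct comparisons of BPA with TBTCl and PFOS it added the calls given above, and pairing was checked for each compound against DMSO, not between compounds. The replicate number called 6466 genes as reported, 4062 without the water libraries, 3939 without DMSO and 3484 without PFOS.

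Leaving out single libraries gave 3 to 10 genes for CdCl2, 0 to 2 for PFOS (58 without TBTCl replicate 4), 5 to 160 for TBTCl against DMSO, 12 to 290 for TBTCl against PFOS and 1617 to 2515 for TCDD against PFOS (3356 without TBTCl replicate 4). It gave 4 to 6 of the 10 genes for BPA against DMSO, 1 for TCDD against DMSO and 2 to 4 for TCDD against TBTCl. For IGF2 under PFOS the 95% interval of the log2 change ran from -1.11 to 1.25 without the block, and the block lowered its SE from 0.57 to 0.30.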
